A study of Mus musculus with 36 samples.

Results

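Metallothioneins and the membrane carriers of zinc and copper form a group of 10 genes: the metallothioneins Mt1 and Mt2, the zinc importers Slc39a8, Slc39a14 and Slc39a4, the exporters Slc30a1 and Slc30a10, the copper pumps Atp7a and Atp7b, and the metal-sensing factor Mtf1. All 10 were found in both deposited tables by gene number, among 19001 genes in the paired-end table and 17697 in the single-end table. They were selected on their X-ray and d24 differences in these same libraries, so those differences are given below as descriptions and carry no test. The series concerns the p53 C-terminus, liver gene regulation and resistance to radiation, per its title.

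Metallothioneins are small cysteine-rich proteins that bind zinc and copper and buffer both metals inside cells. Proteins of the Slc39 (ZIP) family bring zinc and related metals into the cytosol, proteins of the Slc30 (ZnT) family take them out of it, and the Atp7 pumps load copper into the secretory pathway or expel it from the cell. Mtf1 binds metal response elements in the promoters of metallothionein and zinc exporter genes when zinc is high, and the liver is the organ known for strong metallothionein induction by metals, glucocorticoids and inflammation.

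RNA was extracted from pieces of liver, spleen and thymus of mice with wild-type p53 (wt) and of mice whose p53 lacks its C-terminus (d24). The data held 36 libraries in 12 groups of 3. The paired-end table held wt tissues that were untreated (titled no treatment) and wt tissues 3 h after 2 Gy of X-rays, and the single-end table held wt and d24 tissues that were all titled xray. Among the single-end groups, d24 spleen, wt liver and wt thymus carry a label of 2 Gy and 3 h. Strain, age and animal are not given in the labels, nor whether replicates or tissues came from separate animals, so every p-value below measures only the spread between these libraries. Another label field disagrees with these titles: it gives the treatment control for the 9 single-end libraries of d24 liver, d24 thymus and wt spleen, and the cell type WT for all 9 d24 libraries. The groups below follow the titles.

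Values are the deposited normalised signal, that is reads per gene relative to 1000000 reads of a library size adjusted by the submitters. Libraries held 44348579 to 81322683 reads in the paired-end table and 20481048 to 38042710 in the single-end table, so that 1 read was worth at most 0.0828 of signal. Differences are in log2(signal + 0.5) with their standard error (SE), and levels carry the SD of 3 libraries. Signal is not scaled to gene length, so levels are compared between libraries and not between genes. The tables were normalised separately and no test joins them.

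Several facts about whole libraries bear on the values that follow. Cdkn1a, the cell cycle inhibitor raised by active p53, lay between 97.7 and 162 in the 9 irradiated paired-end libraries and between 3.74 and 16.0 in the untreated ones. In the single-end table it was 5.46 to 9.37 in wt spleen and 11.3 to 16.5 in wt thymus, although these are titled xray, against 319 to 416 in d24 spleen and 20.4 to 67.8 in d24 thymus. Wt liver had 17.7, 34.4 and 147, and d24 liver had 359.6, 364 and 108. Genotype and the state of the radiation response therefore cannot be told apart in the d24 comparisons. The mean Trp53 signal was 46.8 ± 4.42 in d24 and 48.3 ± 11.9 in wt liver, 198 ± 47.1 and 99.2 ± 7.76 in spleen, and 122 ± 24 and 120.4 ± 11.5 in thymus; a gene total does not check a deletion of its end. The albumin gene Alb marked the 12 liver libraries at 148091 or more and reached 951 at most in any other library, and the thymic epithelial factor Foxn1 was 7.18 or more in every thymus and at most 0.0182 elsewhere. The thymus library titled d24 replicate 3 stood apart, with 1.35 of Psmb11, a cortical epithelial gene, against 85.0 to 160.4 in the other 5 single-end thymus libraries. The same library had a summed erythroid signal of 3622 against 11.4 to 52.3, and the member differences in d24 thymus are given with and without it.

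Mt1 and Mt2 lie next to each other on chromosome 8 (GRCm38, Mt2 at 94172618 to 94173567 and Mt1 at 94178883 to 94180327) in the same orientation. The 250 bases before the start used for each gene are shown because these genes had the largest d24 differences in liver (RefSeq, GRCm38.p6, plus strand, Mt1 at chr8:94178839-94179088 and Mt2 at chr8:94172368-94172617). For Mt1 most of these bases lie inside the annotated span of the gene. Capitals mark matches, on either strand, to the core of the metal response element, searched as TGCACNC and TGCGCNC.
Mt1: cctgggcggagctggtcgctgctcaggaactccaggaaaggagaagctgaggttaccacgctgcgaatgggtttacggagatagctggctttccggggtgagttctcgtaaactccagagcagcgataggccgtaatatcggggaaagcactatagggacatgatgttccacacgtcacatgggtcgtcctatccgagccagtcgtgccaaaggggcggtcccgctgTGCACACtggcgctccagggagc
Mt2: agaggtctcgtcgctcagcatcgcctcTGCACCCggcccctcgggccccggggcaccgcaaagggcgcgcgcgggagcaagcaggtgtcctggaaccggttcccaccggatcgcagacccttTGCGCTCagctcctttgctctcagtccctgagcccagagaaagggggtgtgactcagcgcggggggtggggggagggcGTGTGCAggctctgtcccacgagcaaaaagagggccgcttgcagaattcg

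With the 50 bases after the start included, the window of 300 bases held 4 matches for Mt2 and 3 for Mt1, of which 1 and 2 lay after the start. At least 3 matches were found in 1.97% of the 32851 RefSeq mouse windows of this length, and at least 1 in 25.7%. The other windows that the table holds had 3 matches for Slc30a10, 2 of which overlap each other on opposite strands, 2 each for Slc30a1 and Atp7a, 1 for Atp7b, 0 and 1 for the 2 starts of Slc39a8, and 0 for Mtf1. These are matches of letters only, and no binding was measured. The start used for Mt1 lies inside the annotated span of the gene, and its other starts are not covered.

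In untreated wt mice the 10 genes differed by tissue, as did most genes tested. On the deposited scaling the liver had the highest level of 8 of the 10, and the share of all genes highest in liver was not counted. Every member differed in each of the 3 tissue contrasts (limma, Benjamini-Hochberg adjusted p from 2.16e-13 to 0.00701), against 85.9% of all genes tested between liver and spleen, 86.4% between liver and thymus and 72.6% between spleen and thymus. Among these log2 differences were 6.40 ± 0.16 for Slc39a14 and 6.26 ± 0.12 for Slc39a4 between liver and spleen. Between liver and thymus they were 5.84 ± 0.12 for Slc39a4, 5.68 ± 0.30 for Mt1 and 5.56 ± 0.12 for Slc30a10. Atp7a was highest in thymus and Mtf1 in spleen. On these values no pair of tissues overlapped for any member, as for 86.8%, 87.1% and 77.3% of all genes in the same 3 contrasts. The untreated libraries were also the reference of the X-ray differences on which the members were selected. The p-values of the tissue contrasts are therefore not independent of that selection.

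**Figure D1:**
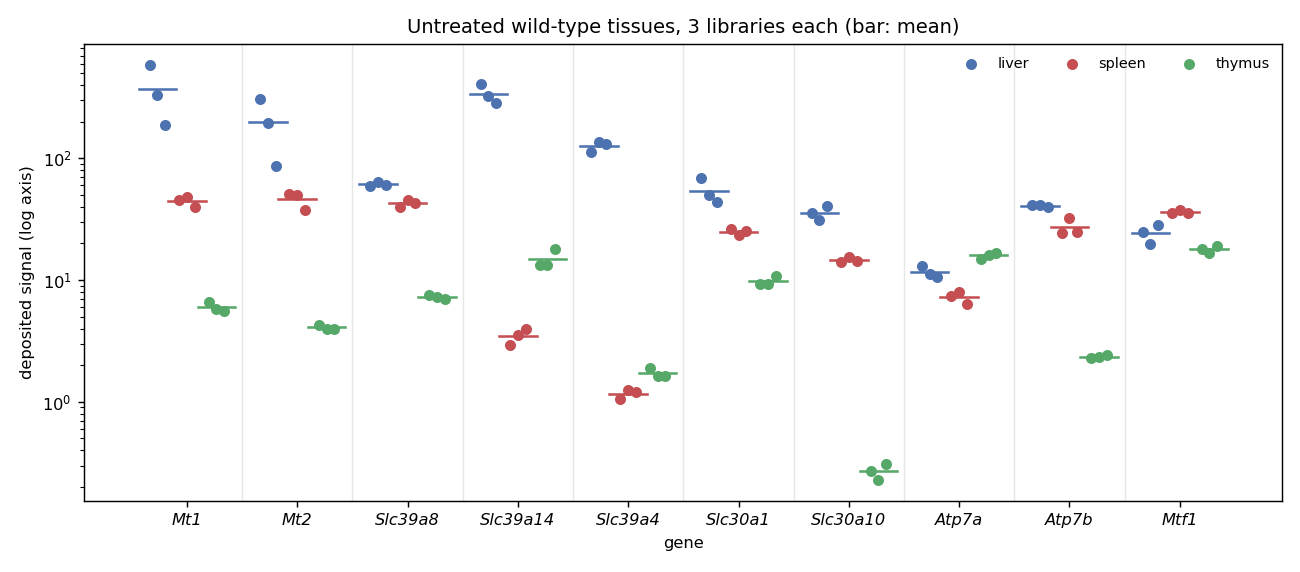
Deposited signal (log axis) of the 10 genes in untreated wild-type liver, spleen and thymus; each point is 1 library and each bar the mean of 3. Liver points lie highest for all genes except Atp7a and Mtf1, and Slc30a10 in thymus lies at 0.311 or below.

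Among the metallothioneins, Mt1 was 588, 333 and 187 in the 3 untreated livers, 45.2, 48.6 and 39.6 in spleens and 6.66, 5.80 and 5.58 in thymuses. Mt2 followed the same order with means of 198 ± 111, 46.0 ± 7.20 and 4.09 ± 0.20. The SD of Mt1 among livers was 203 around a mean of 369, so the livers differed from each other far more than the spleens or the thymuses did. The ratio of Mt1 to Mt2 signal, which is not scaled to length and is read only as a change between libraries, was 1.69 to 2.15 in untreated livers, 0.894 to 1.05 in spleens and 1.41 to 1.54 in thymuses.

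Of the importers, Slc39a8 carries zinc, manganese and iron and averaged 61.1 ± 2.27 in liver, 42.7 ± 2.48 in spleen and 7.24 ± 0.280 in thymus. Slc39a14, a zinc and iron importer of hepatocytes, was 338 ± 63.1 in liver, 14.9 ± 2.69 in thymus and 3.48 ± 0.536 in spleen. Slc39a4, best known as the zinc importer of the gut, was 127 ± 12.9 in liver and 1.72 ± 0.161 and 1.17 ± 0.0993 in thymus and spleen, where its signal rested on 57 to 185 reads a library. Spleen was thus the lowest tissue for the last 2 importers and intermediate for Slc39a8.

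Of the exporters, the zinc exporter of the plasma membrane Slc30a1 was 54.4 ± 13.0 in liver, 24.9 ± 1.5 in spleen and 9.76 ± 0.842 in thymus. Slc30a10, a manganese exporter of liver and gut, was 35.9 ± 4.87, 14.6 ± 0.666 and 0.269 ± 0.0415, the last from 23 to 26 reads a library. Both exporters kept the order liver, spleen, thymus that the metallothioneins and Slc39a8 showed. The copper pump Atp7b, which sends copper to bile and to ceruloplasmin in hepatocytes, kept it too (40.8 ± 0.796, 27.1 ± 4.45 and 2.34 ± 0.0559), whereas Atp7a, the pump of most other tissues, was 15.9 ± 0.881 in thymus, 11.6 ± 1.28 in liver and 7.24 ± 0.837 in spleen. Mtf1 was 36.3 ± 1.02 in spleen, 24.3 ± 4.18 in liver and 17.9 ± 1.18 in thymus.

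The order of liver and spleen depended on the scaling for some members. When each library was instead scaled to its plain total, without the submitters' adjustment, the median gene shifted by -0.86 between liver and spleen, -1.5 between liver and thymus and -0.58 between spleen and thymus. The liver then lay below the spleen for Slc39a8 (-0.52), Atp7a (-0.34) and Atp7b (-0.44), and below the thymus for Mtf1 (-1.22), while Slc30a1 (0.054) and Slc30a10 (0.23) no longer passed between liver and spleen. The share of higher calls over all genes moved from 50% to 26% between liver and spleen, from 51.4% to 19.4% between liver and thymus and from 50.6% to 22.6% between spleen and thymus. Directions for Mt1, Mt2, Slc39a14 and Slc39a4 were the same under both scalings.

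Of 43 other genes of zinc and copper handling, 41 were measured and 36 tested in untreated tissues. Between liver and thymus 29 were higher in liver and 5 lower, or 12 and 18 with plain totals. Between spleen and thymus 16 were higher in spleen and 12 lower, or 10 and 17. The remaining metallothioneins were nearly silent: Mt4 was at 0 in every liver and spleen library, and Mt3 reached 1.87 at most, in the thymus library titled d24 replicate 3.

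In spleen, X-rays were followed by lower levels of most of the group and by a higher level of a single importer. The 3 irradiated and 3 untreated spleens did not overlap for 7 of the 10 genes, 6 lower and 1 higher, where 53.3% of all genes tested in spleen did not overlap. That share is not split by direction here. Of all genes that limma called in irradiated spleen, 2614 were higher and 2737 lower. The X-ray and d24 contrasts were also those from which the members were chosen. In all of them a change in cell make-up and a change in RNA per cell cannot be told apart, since whole tissue was sequenced.

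**Figure D2:**
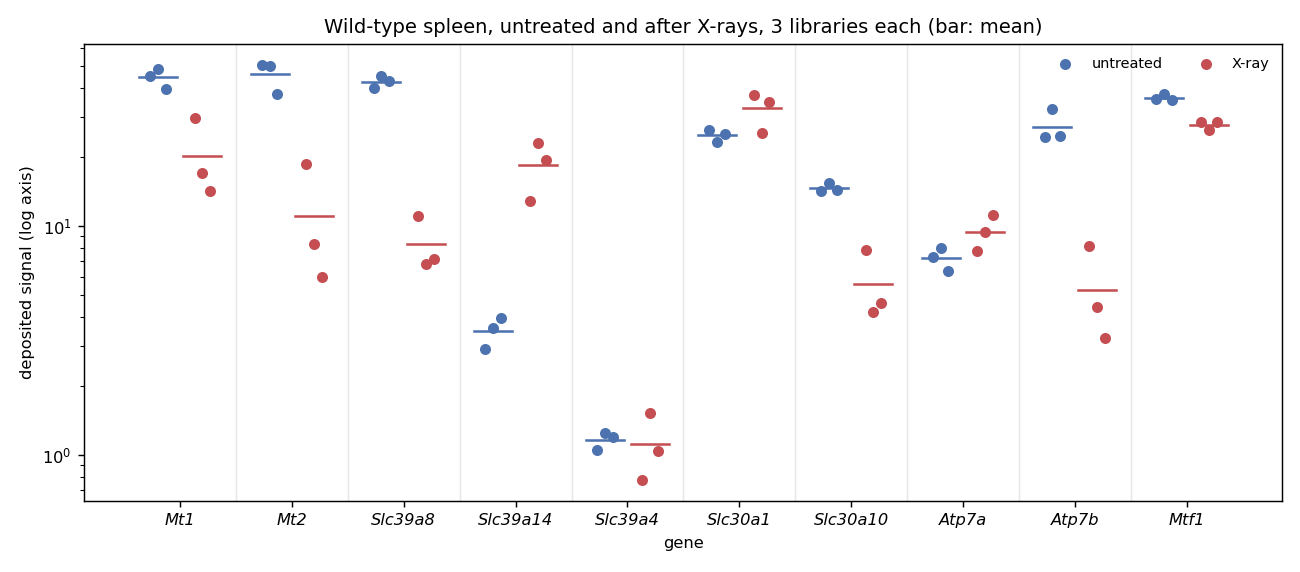
Deposited signal (log axis) of the 10 genes in wild-type spleen, untreated and after X-rays; each point is 1 library and each bar the mean of 3. Slc39a14 is the gene whose irradiated libraries all lie above the untreated ones (12.9 to 23.0 against 2.90 to 3.97), while the irradiated libraries of Slc39a8 and Atp7b all lie lower, at a fold of 0.195 and 0.194 between the means.

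Mt1 was 29.5, 17.1 and 14.2 in irradiated spleens against 45.2, 48.6 and 39.6 in untreated ones, a difference of -1.18 ± 0.23. Mt2 was 18.7, 8.30 and 6.0 against 50.5, 49.8 and 37.7, a difference of -2.16 ± 0.33. The ratio of Mt1 to Mt2 signal went from 0.894 to 1.05 in untreated spleens to 1.58 to 2.36 in irradiated ones, without overlap. Irradiated replicate 1 had the highest metallothionein signal of its group, and without it the differences were -1.48 for Mt1 and -2.61 for Mt2.

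Slc39a8 was 11.0, 6.79 and 7.19 after X-rays against 40.2, 45.1 and 42.8, a difference of -2.32 ± 0.17. Slc39a14 moved the other way, to 12.9, 23.0 and 19.4 from 2.90, 3.57 and 3.97, a difference of 2.22 ± 0.20. The irradiated libraries thus all lay below the untreated ones for the first importer and all above them for the second. Slc39a4 stayed near 1 in both groups, with overlapping libraries (-0.07 ± 0.19).

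Slc30a10 was 7.84, 4.23 and 4.62 against 14.2, 15.4 and 14.3, a difference of -1.37 ± 0.20. Atp7b was 8.14, 4.41 and 3.23 against 24.3, 32.2 and 24.8, a difference of -2.34 ± 0.27. Both groups were fully apart, and irradiated replicate 1 again lay closest to the untreated libraries: without it the differences were -1.62 and -2.68. Mtf1 was lower by a smaller margin, at 28.5, 26.1 and 28.4 against 35.8, 37.5 and 35.6 (-0.39 ± 0.097). The libraries of Slc30a1 (0.36 ± 0.15) and Atp7a (0.35 ± 0.15) overlapped between groups.

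Other transcripts moved with these values. All 8 macrophage markers tested were higher in irradiated spleen (limma, Benjamini-Hochberg adjusted p under the threshold of 0.05), with a summed signal of 854 to 1334 against 489 to 669.9, and 5 of 8 granulocyte markers were higher. Hepatocyte transcripts were present at 0.111% and 0.136% of their liver level in irradiated replicates 3 and 2 and at 0.00653% to 0.0139% in the other 4 libraries. That share of liver RNA would carry 0.528 and 0.648 of Slc39a14 signal into those 2 libraries, against the 19.4 and 23.0 measured, and irradiated replicate 1, with a liver share of 0.0124%, had 12.9. Of 9 erythroid markers 5 lay higher and 4 lower, with a median difference of 0.085, and 1 was called lower. The summed erythroid signal, which the most abundant transcripts dominate, was 79679 to 122454 against 49311 to 73461. Xist marked 2 of 3 irradiated and 1 of 3 untreated libraries of each tissue as female. The part of liver RNA, macrophages, granulocytes, erythroid cells and sex in these differences was not tested.

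Among the 43 other zinc and copper genes, 14 of the 33 tested in spleen differed, 8 higher and 6 lower (42.4%, against 40% of all genes). The main copper importer Slc31a1 fell from 40.6 ± 3.15 to 24.7 ± 1.52, a difference of -0.70 ± 0.11 (limma, Benjamini-Hochberg adjusted p = 0.00147). Steap3, a metal reductase abundant in red cell precursors, fell from 108 ± 13.2 to 45.4 ± 15.8, a difference of -1.29 ± 0.21 (limma, adjusted p = 0.00219). The zinc importer Slc39a1 rose by 0.54 ± 0.11 (limma, adjusted p = 0.00458), and the endosomal copper transporter Slc31a2 rose by 0.55 ± 0.12 (limma, adjusted p = 0.00879). By list, copper enzymes had 5 members higher and 1 lower of 8 tested, and copper importers, chaperones and reductases had 1 higher and 3 lower of 11. ZIP importers had 1 higher and 1 lower of 8, and ZnT exporters 1 and 1 of 6. With 1 library left out the count ran from 4 (without untreated replicate 2 or X-ray replicate 3) to 23 (without X-ray replicate 1), beside 3238, 3136 and 7037 calls over all genes (24.4%, 23.8% and 53.3%). With plain totals, under which the median gene shifted by -0.19 in this comparison, it was 1 higher and 8 lower. Over all genes the share of higher calls then moved from 48.9% to 24.6%.

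In thymus the metallothioneins lay on the other side, higher after X-rays. Of the 9 members that passed the filter on low signal, 4 did not overlap between groups, all higher, where 40.6% of all genes tested in thymus did not overlap and 18.6% did so on the higher side. Mt1 was 13.9, 11.8 and 16.0 in irradiated thymus against 6.66, 5.80 and 5.58, a difference of 1.14 ± 0.13. Mt2 was 6.53, 5.20 and 8.39 against 4.31, 3.99 and 3.95, a difference of 0.63 ± 0.16. Both were thus higher in every irradiated thymus than in any untreated one, while the spleens of the same table showed the reverse.

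Slc39a14 was 18.3, 21.3 and 19.8 after X-rays against 13.3, 13.4 and 18, a difference of 0.41 ± 0.13. Slc39a4 was 2.26, 2.41 and 3.43 against 1.91, 1.63 and 1.64, a difference of 0.51 ± 0.17. The remaining members overlapped: Slc39a8 at -0.17 ± 0.14, Slc30a1 at 0.26 ± 0.12, Atp7a at 0.028 ± 0.097, Atp7b at 0.36 ± 0.24 and Mtf1 at 0.013 ± 0.091. Slc30a10 did not pass the filter, with 10 to 40 reads in any thymus library. Slc39a8 and Atp7b, which were lower in irradiated spleen, thus showed no separation of groups in thymus, although the difference between tissues was not tested.

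Irradiated thymus replicate 3 carried hepatocyte transcripts at 0.426% of the liver level, against 0.0103% to 0.0508% in the other 5 libraries, a share that would bring 1.39 of Mt1 and 0.73 of Mt2 signal. Without it the differences were 1.03 for Mt1 and 0.47 for Mt2. Of 9 glucocorticoid-responsive genes 6 were called higher in thymus and 6 in spleen, where 21.3% and 40% of all genes were called in either direction. Thymic epithelial markers were higher for 4 of 6, with a summed signal of 863 to 999 against 525 to 558. Granulocyte markers were called higher for 5 of 6 (summed signal 45.0 to 102 against 26.3 to 43.7) and macrophage markers for 4 of 7 (275 to 406 against 208 to 263). The part of liver RNA, glucocorticoids, thymic epithelium, granulocytes and macrophages in the metallothionein differences was not tested. Of the other zinc and copper genes tested in thymus 5 of 33 differed (15.2%, against 21.3% of all genes). Ccs, the copper chaperone of superoxide dismutase, rose by 0.61 ± 0.092 (limma, adjusted p = 0.00238), and the zinc importers Slc39a6 and Slc39a10 fell by 0.53 and 0.42 (SE 0.094 and 0.11, limma, adjusted p = 0.00504 and 0.0295). The secretory pathway zinc transporter Slc30a5 fell by 0.35 ± 0.072 (limma, adjusted p = 0.00979), and it had also fallen in spleen, by 0.39 ± 0.10 (limma, adjusted p = 0.0166).

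In wt liver X-rays left the metallothioneins within the wide spread of the untreated livers. Mt1 was 403, 189.7 and 385 after X-rays against 588, 333 and 187, a difference of -0.10 ± 0.42. Mt2 was 177, 105 and 233 against 309, 197 and 86.9, a difference of -0.099 ± 0.44. Both signs turned when untreated replicate 1 (0.31 and 0.31) or X-ray replicate 2 (0.25 and 0.22) was left out. Of the 10 genes 3 did not overlap between groups, where 27.4% of all genes tested in liver did not overlap. These were Slc39a14 (410.1, 608 and 411 against 407, 325 and 283, or 0.48 ± 0.19), Atp7a (15, 21.0 and 19.0 against 13.1, 11.2 and 10.7, or 0.62 ± 0.16) and Atp7b (38.3, 26.3 and 35.3 against 41.1, 41.5 and 40.0, or -0.31 ± 0.15).

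Slc39a14 is the only member whose irradiated libraries all lay above the untreated ones in liver, spleen and thymus alike. However, the nearest pair was 410.1 and 407 in liver and 18.3 and 18 in thymus. The share of all genes apart and higher in each of these tissues was not counted, and the members were selected on these differences. None of the 35 other zinc and copper genes tested in liver passed (limma and, on recovered reads, edgeR and DESeq2). Over all 13250 genes limma called 32 (0.242%), edgeR 32 and DESeq2 631, and 2902 genes had an unadjusted limma p under 0.05. Without X-ray replicate 1 the test called 11 of these other genes, and 2836 of all 13147 genes (21.6%).

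**Figure D3:**
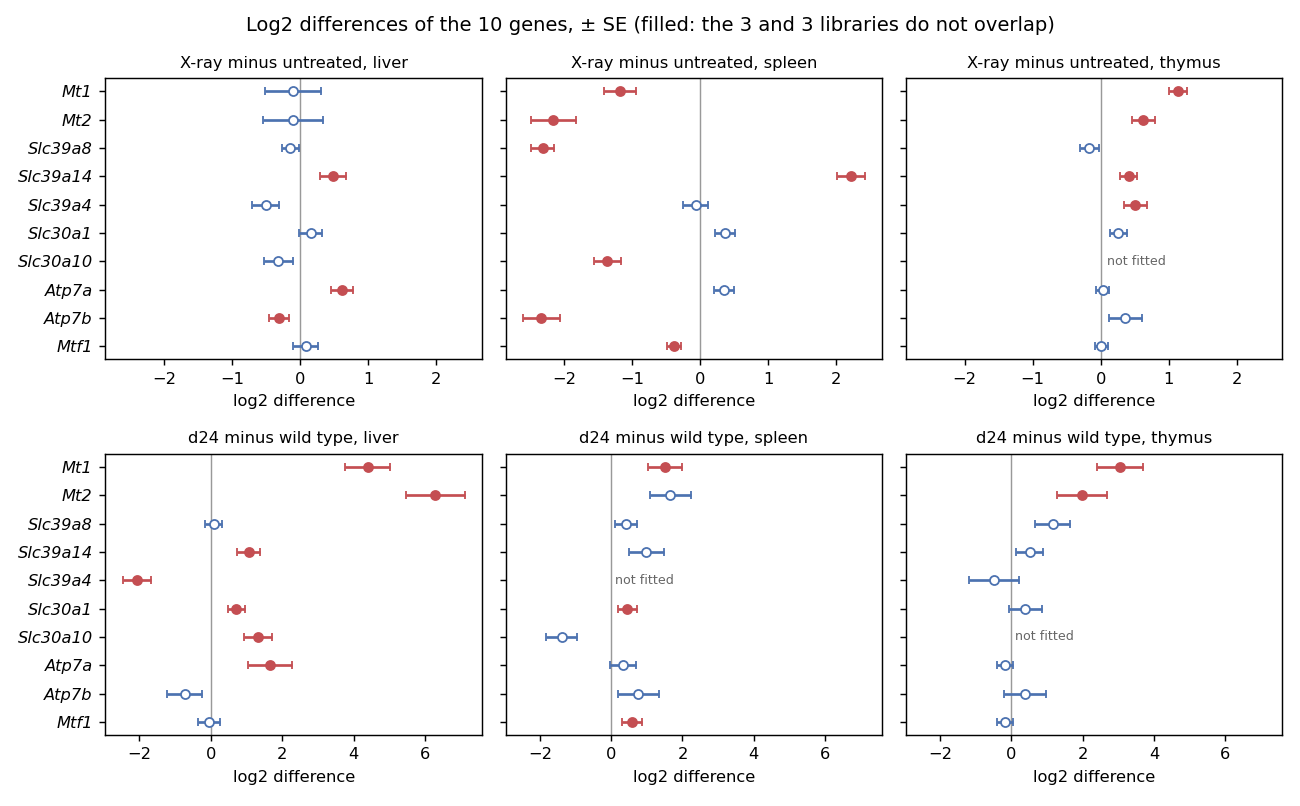
Log2 differences of the 10 genes with their standard errors, X-ray minus untreated (top, paired-end table) and d24 minus wild type (bottom, single-end table), in liver, spleen and thymus; filled points mark genes whose 3 and 3 libraries do not overlap, and the top and bottom panels have different x axes. Mt1 and Mt2 lie left of 0 in irradiated spleen (-1.18 and -2.16) and right of 0 in irradiated thymus and in all 3 d24 tissues.

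Against wt, the livers titled d24 held much more metallothionein RNA. Mt1 was 2185, 5589 and 697 in d24 liver against 97.2, 156 and 59.5 in wt liver, a difference of 4.39 ± 0.63. Mt2 was 1447, 3632 and 362 against 18.8, 37.8 and 4.82, a difference of 6.29 ± 0.82. The lowest d24 liver thus lay above the highest wt liver in both genes, at 697 against 156 and 362 against 37.8. The ratio of Mt1 to Mt2 signal was 1.51 to 1.93 in d24 livers, 1.65 to 2.28 in the 6 paired-end livers and 4.13 to 12.3 in the wt livers of the single-end table. The Mt2 level of those wt livers lay below that of all 6 paired-end livers (86.9 to 309), a side by side reading across tables that were normalised separately.

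**Figure D4:**
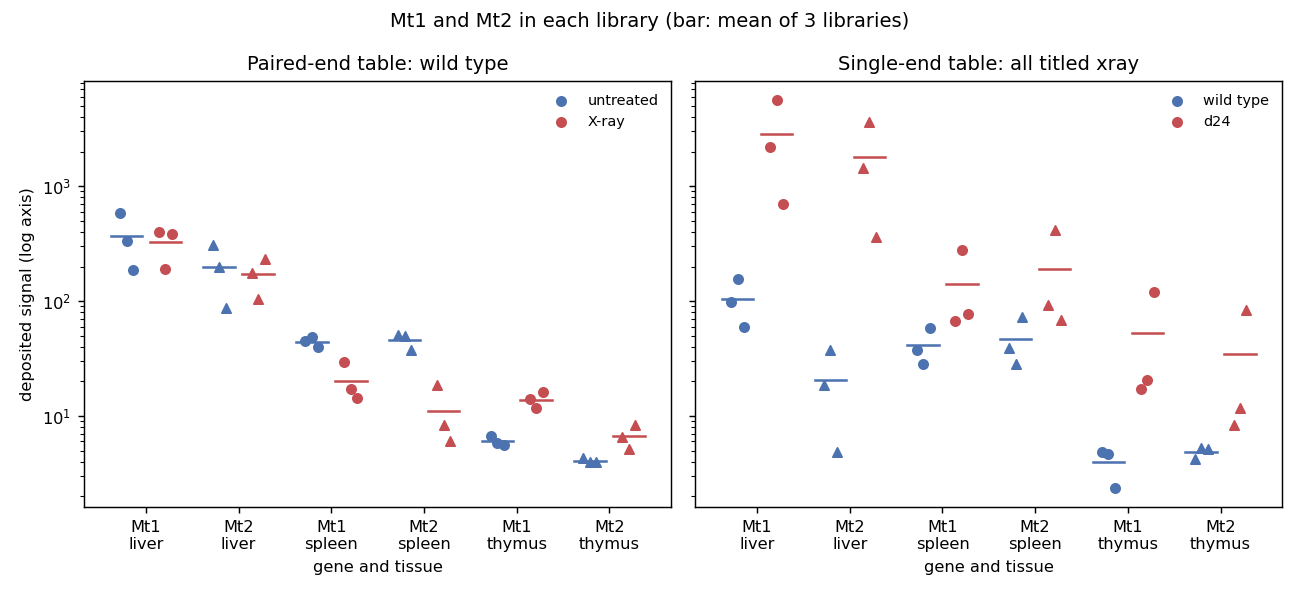
Deposited signal (log axis) of Mt1 (circles) and Mt2 (triangles) in every library, paired-end table on the left and single-end table on the right; each bar is the mean of 3 libraries. The d24 livers reach 5589 for Mt1, and the single-end wt livers hold less Mt2 (4.82 to 37.8) than any paired-end liver.

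In d24 liver 7 of the 10 genes did not overlap with wt, 6 higher and 1 lower, where 19.1% of all genes tested did not overlap. That share is not split by direction here. Of all genes that limma called in d24 liver, 38 were higher and 34 lower. Of the importers, Slc39a14 was 349, 828 and 359 against 241, 211 and 223 (1.06 ± 0.33), and Slc39a4 was 18.5, 23.3 and 60.4 against 141, 108 and 134 (-2.08 ± 0.40). Slc39a8 overlapped, at 94.9, 70.0 and 87.5 against 68.3, 96.6 and 75.0 (0.077 ± 0.25). Each of the 3 importers thus had its own pattern in d24 liver, 1 higher, 1 lower and 1 without separation.

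Both exporters were higher. Slc30a1 was 75.8, 107 and 91.0 against 52.7, 57.7 and 54.6 (0.71 ± 0.24), and Slc30a10 was 83.5, 185 and 92.7 against 51.2, 65.1 and 27.3 (1.32 ± 0.39). Of the copper pumps, Atp7a was 46.0, 201 and 24.4 against 22.6, 17 and 17.7 (1.66 ± 0.61). Atp7b overlapped at 9.35, 22.0 and 35.8 against 47.1, 36.2 and 20.7 (-0.74 ± 0.48), and so did Mtf1 at 15.3, 19.8 and 24.4 against 19.6, 21.7 and 19.1 (-0.042 ± 0.31). Only Mtf1 RNA was measured, and the part of Mtf1 in the metallothionein difference was not tested.

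**Figure D5:**
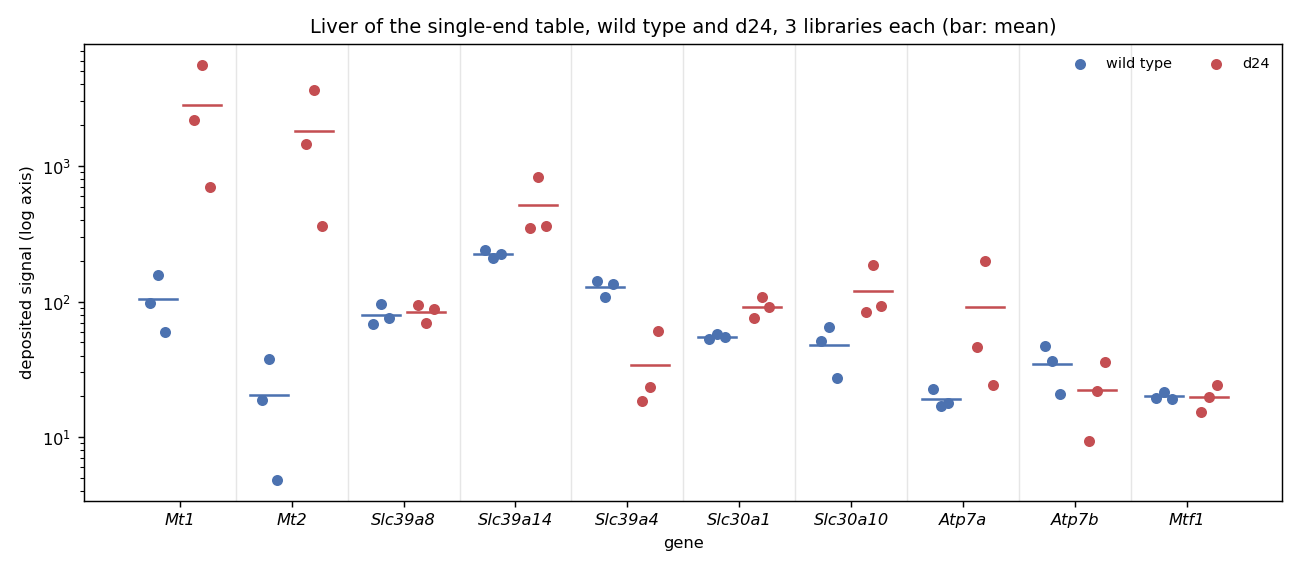
Deposited signal (log axis) of the 10 genes in the single-end livers, wild type and d24; each point is 1 library and each bar the mean of 3. Replicate 2 of d24 (5589 for Mt1, 201 for Atp7a) is the highest d24 library for 6 genes, and Slc39a4 is the gene whose d24 libraries all lie below wild type.

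The d24 liver replicate 2 was the highest of its group in Mt1, Mt2, Slc39a14, Slc30a1, Slc30a10 and Atp7a. It also held 1200.0 of Lcn2 and 61.0 of Saa1, which rise in the acute phase response, and 625 of Pdk4, against 42.3 to 118, 3.65 to 6.11 and 61.8 to 100.4 in the other d24 livers. Without it the differences were 3.67 for Mt1, 5.52 for Mt2, 0.66 for Slc39a14 and 0.81 for Atp7a, and without replicate 3 they were 5.17 for Mt1 and -2.58 for Slc39a4. Lcn2 and Saa1 belong to a list of 10 acute phase genes and Pdk4 to the glucocorticoid-responsive list, whose other genes are not given by library. Of 9 acute phase genes tested 8 lay higher in d24 liver and 1 lower, with 1 called higher. The summed acute phase signal was 20792 to 57594 against 17929 to 21770. All 9 glucocorticoid-responsive genes lay higher in d24 liver, with none called, and their summed signal was 1108 to 3573 against 793 to 1208. Granulocyte markers were called lower for 6 of 8 (summed signal 16.7 to 74.0 against 400.2 to 894). All 5 B cell markers tested were apart and lower, 1 of them called (7.30 to 8.29 against 27.2 to 79.1), and the thymocyte and T cell sum was 13.2 to 13.4 against 30.0 to 64.3. Female libraries by Xist were 2 of 3 in d24 and 1 of 3 in wt liver. Erythroid markers lay lower for 7 of 8, 1 of them called, with a summed signal of 133 to 455 against 314 to 2307. Macrophage markers lay lower for 7 of 8, none called, with a summed signal of 1224 to 2256 against 1407 to 3819. The part of acute phase signals, glucocorticoids, granulocytes, lymphocytes, erythroid cells, macrophages and sex in the metallothionein difference was not tested.

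None of the 35 other zinc and copper genes tested in d24 liver passed with limma or edgeR, and 1 did with DESeq2. Over all 13695 genes limma called 72 (0.526%), edgeR 11 and DESeq2 531, and 1829 had an unadjusted limma p under 0.05. Over all genes the limma count ran from 4 without wt replicate 2 to 311 without d24 replicate 3. With plain totals the median gene shifted by -0.30 here, and the share of higher calls moved from 52.8% to 30.9%.

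In d24 spleen the metallothioneins were higher in mean but spread widely. Mt1 was 66.9, 278 and 76.6 against 37.3, 28.6 and 57.9 in wt spleen, a difference of 1.5 ± 0.48. Mt2 was 92.7, 413 and 67.8 against 39.2, 28.1 and 72.3, a difference of 1.66 ± 0.56 with overlapping libraries. Replicate 2 of d24 set the means, and without it the differences were 0.85 and 0.87. Of the 9 members that passed the filter 3 did not overlap, all higher (Mt1, Slc30a1 and Mtf1), where 19.3% of all genes tested did not overlap and 8.74% did so on the higher side.

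Slc30a1 was 39.7, 45.6 and 49.6 against 34.1, 37.3 and 26.9 (0.46 ± 0.28), and Mtf1 was 56.6, 92.6 and 61.9 against 51.3, 43.2 and 43.1 (0.58 ± 0.28). Slc39a8 was 60.6, 63.1 and 45.2 against 60.1, 38.3 and 31.7 (0.41 ± 0.31), and Atp7b was 19.6, 29.4 and 29.2 against 34.9, 19.7 and 4.6 (0.76 ± 0.57, or -0.033 without wt replicate 3). The groups thus overlapped for these last 2 genes, which were lower in irradiated paired-end spleen, while the d24 spleens had a Cdkn1a signal of 319 to 416 against 150.1 to 162 in irradiated paired-end spleen. Wt spleens of the single-end table lay near the untreated paired-end level for Slc39a8 (43.3 ± 14.9 and 42.7 ± 2.48) and Mt1 (41.3 ± 15.1 and 44.5 ± 4.53), and their Cdkn1a was 5.46 to 9.37, near the 3.74 to 6.32 of untreated spleen. Their means were higher than the untreated paired-end ones for Slc30a10 (33.1 ± 16.1 and 14.6 ± 0.666) and Atp7a (17.9 ± 6.0 and 7.24 ± 0.837). The tables were normalised separately, so these levels are set side by side only.

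Slc30a10 was lower on average in d24 spleen, at 11.4, 16.3 and 7.42 against 47.3, 36.3 and 15.6, with libraries that overlapped (-1.39 ± 0.44). Slc39a14 was 9.09, 11.4 and 4.72 against 3.54, 5.38 and 2.72 (0.99 ± 0.48), also overlapping. Slc39a4 did not pass the filter, with 0 to 73 reads a library. Atp7a overlapped at 0.34 ± 0.36, and its sign turned with sex as a covariate (-0.14). The d24 spleens were all 3 female by Xist and the wt spleens 1 of 3, and granulocyte markers were lower for 8 of 8 (summed signal 106 to 901 against 2768 to 8511). The summed B cell signal was 61.9 to 321 against 468 to 625. The part of sex, granulocytes and B cells was not tested. Of 34 other zinc and copper genes tested 1 differed (2.94%, against 2.28% of all genes): Sod3, the extracellular superoxide dismutase, was 46.9 ± 13.0 in d24 against 17.9 ± 2.19, a rise of 1.34 ± 0.31 (limma, adjusted p = 0.0478), and with any 1 of the 6 libraries left out none of these genes passed.

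In d24 thymus both metallothioneins were higher in every library than in any wt thymus. Mt1 was 17.1, 20.4 and 119.7 against 4.81, 4.63 and 2.36, a difference of 3.05 ± 0.64. Mt2 was 8.36, 11.7 and 83.3 against 4.21, 5.25 and 5.11, a difference of 1.97 ± 0.70. Replicate 3, the library with little Psmb11, held the highest value of both, and without it the differences were 2.16 and 0.96. Its liver share of 0.358% would bring 10.1 of Mt1 and 6.49 of Mt2 signal. The summed macrophage signal was 197 to 452 in d24 against 158 to 165 in wt thymus, with 5 of 7 markers apart and higher. The summed thymocyte and T cell signal was 3764 to 5978 against 6407 to 6988, with 4 of 6 markers apart and lower, and the B cell sum was 19.6 to 30.1 against 39.7 to 60.0. None of these markers was called. Their part in the metallothionein difference, and that of liver RNA, was not tested.

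These were the 2 of 9 members that did not overlap in thymus, where 16.6% of all genes tested did not overlap and 9.02% did so on the higher side. Slc39a8 was 18.2, 15.2 and 42 against 4.81, 15.6 and 12.8 (1.15 ± 0.49), with replicate 3 again the highest, and without it the difference was 0.72. Slc39a14, Slc39a4, Slc30a1, Atp7a, Atp7b and Mtf1 overlapped, with differences from -0.49 ± 0.70 for Slc39a4 to 0.51 ± 0.38 for Slc39a14. Without replicate 3 the signs of Slc30a1 (0.39 to -0.12) and Atp7b (0.37 to -0.084) turned, and the differences were 0.73 for Slc39a14, -0.74 for Slc39a4, -0.019 for Atp7a and -0.18 for Mtf1. Slc30a10 had no read in the 3 wt thymuses and 0 to 29 reads in the d24 ones. None of the 33 other zinc and copper genes tested passed with limma or edgeR, and 1 did with DESeq2. Over all 13818 genes limma called 1 (0.00724%), edgeR 2 and DESeq2 266, with 1359 at an unadjusted limma p under 0.05. Without d24 replicate 3 limma called 71 of 13311 genes (0.533%), and none of the other zinc and copper genes.

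Across the 3 tissues, Mt1 had higher d24 means by 27.1-fold in liver, 3.41-fold in spleen and 13.3-fold in thymus, and Mt2 by 88.6-fold, 4.10-fold and 7.09-fold. The thymus means include d24 replicate 3, without which the log2 differences there were 2.16 for Mt1 and 0.96 for Mt2. Without d24 replicate 2 the log2 differences in spleen were 0.85 and 0.87. Mt1 was the one member apart from wt in the same direction in all 3 tissues, since the Mt2 libraries overlapped in spleen. The share of all genes apart in the same direction in all 3 tissues was not counted, and the members were selected on these differences. Whether the difference varies between tissues was not tested.

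Over the 18 paired-end libraries, with each tissue centred on its own mean, the gene most like Mt1 among 11621 candidates was Mt2 (Pearson r 0.91), followed by Tifa (0.89), Rgs12 (0.88) and Gabarapl1 (0.88). In the 18 single-end libraries the same pairs had r of 0.96, -0.25, 0.52 and 0.21. The pairing of the metallothioneins was thus present in both tables and that of Mt1 with Tifa was not. Slc39a8 was most like Igsf3 (0.97), Wdsub1 (0.96), Alg6 (0.96) and Minpp1 (0.96), with single-end values of -0.25, 0.20, 0.14 and -0.090. Atp7b was most like Ap1b1 (0.97), Stard10 (0.96), Igsf3 (0.96) and Lrrc20 (0.95), with single-end values of 0.64, -0.26, 0.52 and 0.18. Slc39a8 and Atp7b had an r of 0.94 with each other in the paired-end libraries and 0.29 in the single-end ones, and Slc39a8 and Slc30a10 0.92 and 0.28. Libraries of a table share their normalisation and their X-ray or genotype contrast, so these values describe likeness only.

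In GRCm38, Slc39a8 lies on chromosome 3 (135816882 to 135888572), Slc39a14 on chromosome 14 (70303467 to 70351452) and Slc39a4 on chromosome 15 (76612383 to 76618506). Slc30a1 (191906697 to 191913248) and Slc30a10 (185454848 to 185468762) both lie on chromosome 1, and Mtf1 lies on chromosome 4 (124802549 to 124849800). Atp7a lies on chromosome X (106027224 to 106128161) and Atp7b on chromosome 8 (21992783 to 22060074). Noncoding genes overlap Slc39a8, Slc30a1 and Slc30a10 in the RefSeq annotation, and a protein-coding gene overlaps Mtf1. The sources used here do not say whether strand was used in counting, and reads of an overlapping partner cannot be told apart for these 4 genes. No other RefSeq gene overlaps the remaining 6.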

How the data were processed

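The deposited values are a normalised signal: reads per gene over an effective library size, made by the authors with edgeR on mm10 per the submitters' processing notes, with aligner, counter and strand not given in the sources used here. The design had assumed another unit, counts scaled to the library total; the test was kept. All values were whole multiples of 1 read (tolerance 0.01 of a step), so reads were recovered. Of the paired-end columns 18 were not used. Gene numbers matched a RefSeq symbol for 96.7% and 97.1% of genes. limma 3.58.1 (R 4.3.3) with a mean trend was fitted on log2(signal + 0.5) for genes that reached a signal of 1 in 3 or more of the libraries compared. P-values were adjusted by Benjamini-Hochberg across every gene fitted, and 0.05 was the threshold. The tissue contrasts came from 1 fit of the 9 untreated libraries. The script was tested on simulated data. Alternatives were pseudocounts of 0.1 and 2, no filter, a mean of at least 5, median-ratio scaling, edgeR 4.0.16 and DESeq2 1.42.0 on recovered reads, the replicate block, and each library left out; a sex covariate (Xist over 10) and plain totals were added after seeing the data. Same-numbered libraries correlated at 0.177 to 0.241 in X-ray spleen and 0.154 to 0.326 in spleen against thymus, from which a pairing was inferred there. The main fits did not use this pairing. The replicate block, fitted as an alternative, changed no count by over 1.5 times in these comparisons. The members and lists were chosen with earlier results of these data known. Named genes are the 10 members, up to 4 called genes of the other zinc and copper lists per comparison with the smallest adjusted p, and the 4 genes most like Mt1, Slc39a8 and Atp7b among those with a mean of at least 5. Slc30a5 in spleen was named after its values were seen.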

Additional observations from a re-analysis of the deposited data

Results flagged for a closer look

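Mt1 and Mt2 each had groups of libraries fully apart in opposite directions in irradiated spleen and irradiated thymus of the paired-end table. Mt1 was lower in every irradiated spleen (-1.18 ± 0.23) and higher in every irradiated thymus (1.14 ± 0.13). Mt2 was lower in every irradiated spleen (-2.16 ± 0.33) and higher in every irradiated thymus (0.63 ± 0.16). The difference between the tissues was not tested, since these genes were selected on the same values.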

How the results depend on the processing

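The 10 genes gave 907 log2 differences for X-rays and d24 under the alternatives, of which 19 moved by more than 1 SD, 14 of them with 1 library left out, and 25 changed sign. Of 570 tissue contrasts of members, 564 kept their direction and their side of the threshold. With plain totals, chosen after seeing the data, 4 reversed: liver against spleen for Slc39a8 (-0.52), Atp7a (-0.34) and Atp7b (-0.44), and liver against thymus for Mtf1 (-1.22). Of 153 counts under the alternatives 34 moved by over 1.5 times, and the cause was not tested. The number of other zinc and copper genes called in d24 spleen, 1 as reported, was 0 with a pseudocount of 0.1, no filter, edgeR, a sex covariate or plain totals, and 2 with a pseudocount of 2, a mean of at least 5, DESeq2 or the replicate block. In d24 liver, 0 as reported, it was 1 with a pseudocount of 2, median-ratio scaling, DESeq2 or plain totals, and in d24 thymus it was 1 with DESeq2. In X-ray thymus, 5 as reported, it was 9 with DESeq2, 10 with the replicate block and 3 with a sex covariate. In X-ray spleen, 14 as reported, it was 9 with a sex covariate or plain totals. With 1 library left out it ranged from 0 to 11 in X-ray liver (11 without X-ray replicate 1) and from 4 to 23 in X-ray spleen (4 without untreated replicate 2 or X-ray replicate 3, 23 without X-ray replicate 1). The range was 3 to 5 in X-ray thymus, 0 to 1 in d24 liver and 0 to 0 in d24 spleen. All same-numbered libraries correlated above 0.1 only in X-ray spleen and in spleen against thymus. In X-ray thymus the same-numbered values were 0.055, 0.476 and 0.249, against at most 0.058 between different numbers. The replicate block gave 4270 calls over all genes there, against 2945 without it. Where a member rested on few reads, as Slc30a10 in thymus and Slc39a4 in spleen, depth limits what could be seen.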
